A study of Saccharomyces cerevisiae with 15 samples.

Results

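The small nucleolar RNAs (snoRNAs) of budding yeast were followed through 15 RNA-seq libraries of 11 genotypes. The members were all rows of the deposited RPKM table whose name begins with snR and appears once, which gave 76 of 6662 rows. All 76 are annotated as snoRNAs in the R64 assembly, 47 of the box C/D class and 29 of the box H/ACA class. The spliceosomal RNAs snR6, snR7, snR14, snR19 and LSR1 were not among these rows.

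Each library was made from rRNA-depleted total RNA of haploid cells of the BY4741/2 background (his- leu- ura-) in mid-log growth on YPD. The genotypes were xrn1 (2 libraries), upf1 (2), htz1 (2), swr1, the double mutants swr1 xrn1, swr1 upf1, htz1 xrn1 and htz1 upf1, prp43 DAmP, prp43 DAmP htz1, and wild type (2, numbered 1 and 3). All lesions other than prp43 are gene deletions. HTZ1 encodes the histone variant H2A.Z, SWR1 the remodeller that places it in chromatin, XRN1 the cytoplasmic 5′-to-3′ exonuclease and UPF1 (NAM7 in the annotation) a helicase of nonsense-mediated decay. PRP43 encodes an RNA helicase of spliceosome disassembly and ribosome assembly, and a DAmP allele lowers the mRNA of an essential gene without deleting it. The labels do not say whether libraries of 1 genotype came from separate clones or cultures, so the p-values measure the spread between these libraries only.

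snoRNAs are stable nuclear RNAs that pair with precursor ribosomal RNA. Box C/D RNAs, bound by Nop1 (fibrillarin), Nop56, Nop58 and Snu13, guide 2′-O-methylation. Box H/ACA RNAs, bound by Cbf5, Gar1, Nhp2 and Nop10, guide pseudouridylation. A few, among them U3, U14 and snR30, are needed for cleavage of the precursor. Most yeast snoRNAs are transcribed from their own promoter and terminated by Nrd1, Nab3 and Sen1. Others are cut from shared precursors, or lie in introns and are released from the debranched lariat by nuclear exonucleases.

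The sequences of the snoRNAs on which the results turn are given here from the RefSeq R64 genome, 5′ to 3′ in the sense of the RNA with T for U. Capitals mark TGATGA (box C) within the first 30 bases and CTGA (box D) within the last 30 bases of box C/D RNAs, and ACA within the last 15 bases of box H/ACA RNAs. U14 (snR128), snR13 and snR40 had the largest falls among box C/D RNAs when XRN1 was deleted, and snR68 had the highest value above 0 in that comparison. They lie at chrX:139566-139691 (minus strand), chrIV:1402919-1403042 (plus strand), chrXIV:89210-89306 (plus strand) and chrIX:97111-97246 (plus strand).
snR128: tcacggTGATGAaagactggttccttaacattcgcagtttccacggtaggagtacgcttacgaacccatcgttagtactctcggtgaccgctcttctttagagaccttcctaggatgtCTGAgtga
snR13: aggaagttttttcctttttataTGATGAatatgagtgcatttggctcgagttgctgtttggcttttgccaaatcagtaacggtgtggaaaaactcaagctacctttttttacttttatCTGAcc
snR40: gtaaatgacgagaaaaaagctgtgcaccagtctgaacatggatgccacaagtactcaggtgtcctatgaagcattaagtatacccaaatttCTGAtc
snR68: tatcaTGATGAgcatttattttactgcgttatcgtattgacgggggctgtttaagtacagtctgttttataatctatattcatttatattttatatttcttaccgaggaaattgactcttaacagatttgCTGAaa

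snR39B, snR60, snR77 and snR76 are the RNAs that passed the test for SWR1 loss, and snR76 also passed it for HTZ1 loss. They lie at chrVII:366374-366469 (minus strand), chrX:349130-349233 (minus strand), chrXIII:297506-297593 (plus strand) and chrXIII:297725-297833 (plus strand). snR76 and snR77 are cut from 1 precursor.
snR39B: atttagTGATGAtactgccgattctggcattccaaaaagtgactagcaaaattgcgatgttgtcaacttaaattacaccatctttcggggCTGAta
snR60: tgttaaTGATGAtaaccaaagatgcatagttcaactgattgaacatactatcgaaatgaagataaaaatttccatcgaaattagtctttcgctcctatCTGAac
snR77: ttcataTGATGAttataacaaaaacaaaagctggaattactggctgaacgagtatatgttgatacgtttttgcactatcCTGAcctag
snR76: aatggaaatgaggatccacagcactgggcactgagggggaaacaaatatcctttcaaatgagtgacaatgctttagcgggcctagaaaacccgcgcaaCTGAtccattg

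snR18, snR39 and snR59 stand for the intronic RNAs, at chrI:142367-142468 (plus strand), chrVII:365163-365251 (minus strand) and chrXVI:173827-173904 (plus strand). snR39 and snR59 lie in introns of the paralogous genes RPL7A and RPL7B and share 66 identical bases over 89 aligned positions, an identity of 74.2%. snR39B shares 68.6% with snR39.
snR18: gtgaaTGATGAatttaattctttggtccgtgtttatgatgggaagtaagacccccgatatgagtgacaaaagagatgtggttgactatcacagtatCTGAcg
snR39: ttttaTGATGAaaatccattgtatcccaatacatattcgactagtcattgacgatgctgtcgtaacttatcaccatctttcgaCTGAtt
snR59: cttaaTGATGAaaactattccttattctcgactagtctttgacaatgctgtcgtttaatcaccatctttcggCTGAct

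snR5 and snR8 had the largest falls among box H/ACA RNAs, and lie at chrXV:842403-842606 (plus strand) and chrXV:832332-832521 (plus strand).
snR5: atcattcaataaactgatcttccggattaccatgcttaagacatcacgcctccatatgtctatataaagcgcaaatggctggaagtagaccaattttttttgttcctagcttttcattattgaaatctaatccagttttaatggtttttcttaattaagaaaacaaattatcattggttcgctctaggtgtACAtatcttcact
snR8: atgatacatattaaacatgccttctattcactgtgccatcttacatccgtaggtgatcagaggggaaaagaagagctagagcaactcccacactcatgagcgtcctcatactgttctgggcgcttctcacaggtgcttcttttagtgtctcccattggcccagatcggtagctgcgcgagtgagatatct

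TGATGA and CTGA were found together at the ends described in 37 of 47 box C/D RNAs and in 0 of 29 box H/ACA RNAs. Of 246336 windows of 98 bases that tile both strands of the nuclear genome, 0.133% held both. Taken singly, TGATGA was in 37 of 47 box C/D RNAs and 1.49% of those windows, and CTGA in 45 of 47 and 9.18%. ACA was near the end of 19 of 29 box H/ACA RNAs, 11 of 47 box C/D RNAs and 19.6% of windows of 204 bases.

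snoRNA levels spanned 4 orders of magnitude on the RPKM scale, which divides reads by gene length and library size. The median over the 15 libraries ran from 0.939 RPKM for snR53, a box C/D guide for the small subunit rRNA, to 12862 RPKM for snR190, the box C/D RNA made in 1 precursor with U14. snR17a, the more abundant of the 2 U3 genes, had a median of 10634 RPKM. The H/ACA RNA snR37 had 6750 RPKM, snR30, which is essential for small subunit rRNA processing, 6730 RPKM, and snR10, whose loss makes cells cold-sensitive, 4229 RPKM. These 5 RNAs together made up between 43.4% and 58.8% of all snoRNA RPKM in a library.

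At the low end stood snR53, snR72 (3.38 RPKM), snR78 (3.44 RPKM), snR59 (4.25 RPKM) and snR65 (4.27 RPKM), all box C/D. snR53 was listed at 0 in 5 libraries and snR59 in 2, and no other snoRNA reached 0. The median read number recovered for snR53 was 2 a library, so its values rest on counting error of about their own size.

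Level followed class and length. The median of the members' medians was 23.3 RPKM for box C/D RNAs and 1104 RPKM for box H/ACA RNAs. Box C/D RNAs under 110 bases, 36 of the 47, had a median of 17.5 RPKM and reached at most 154 RPKM. The 11 box C/D RNAs of 110 bases or more had a median of 1347 RPKM. Across the 76 RNAs, which share the same libraries, Spearman's rho between length and median RPKM was 0.82. Within class it was 0.53 for box C/D and 0.52 for box H/ACA RNAs. How RNA of this size was selected during library preparation is not given in the sources used here, and its part in the relation was not tested.

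RNAs cut from 1 precursor differed widely in level. In the snR190-U14 unit the medians were 12862 and 1347 RPKM, a 9.55-fold gap. In the snR41-snR70-snR51 unit they were 75.4, 646 and 15.5 RPKM. In the unit of 7 RNAs from snR72 to snR78, the highest median, 77.0 RPKM for snR73, was 22.8 times the lowest, 3.38 RPKM for snR72. The longest RNA was the highest in the first 2 of these units. The ratio of snR190 to U14 itself ran from 3.38 in swr1 upf1 to 207 in xrn1 replicate 2, while the ratio of snR17a to snR17b, the 2 U3 genes (81.7% identical), stayed between 3.72 and 8.16.

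Some snoRNAs varied far more among libraries than others. The SD of log2(RPKM + 1) over the 15 libraries was largest for U14 (2.04), snR40 (1.89), snR8 (1.89), snR13 (1.86) and snR39B (1.63). It was smallest for snR74 (0.42), snR83 (0.50), snR62 (0.50), snR61 (0.53) and snR48 (0.57). U14 ranged from 24.7 to 3494 RPKM, and snR74, of the snR72 to snR78 unit, from 8.52 to 27.0 RPKM.

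**Figure D1:**
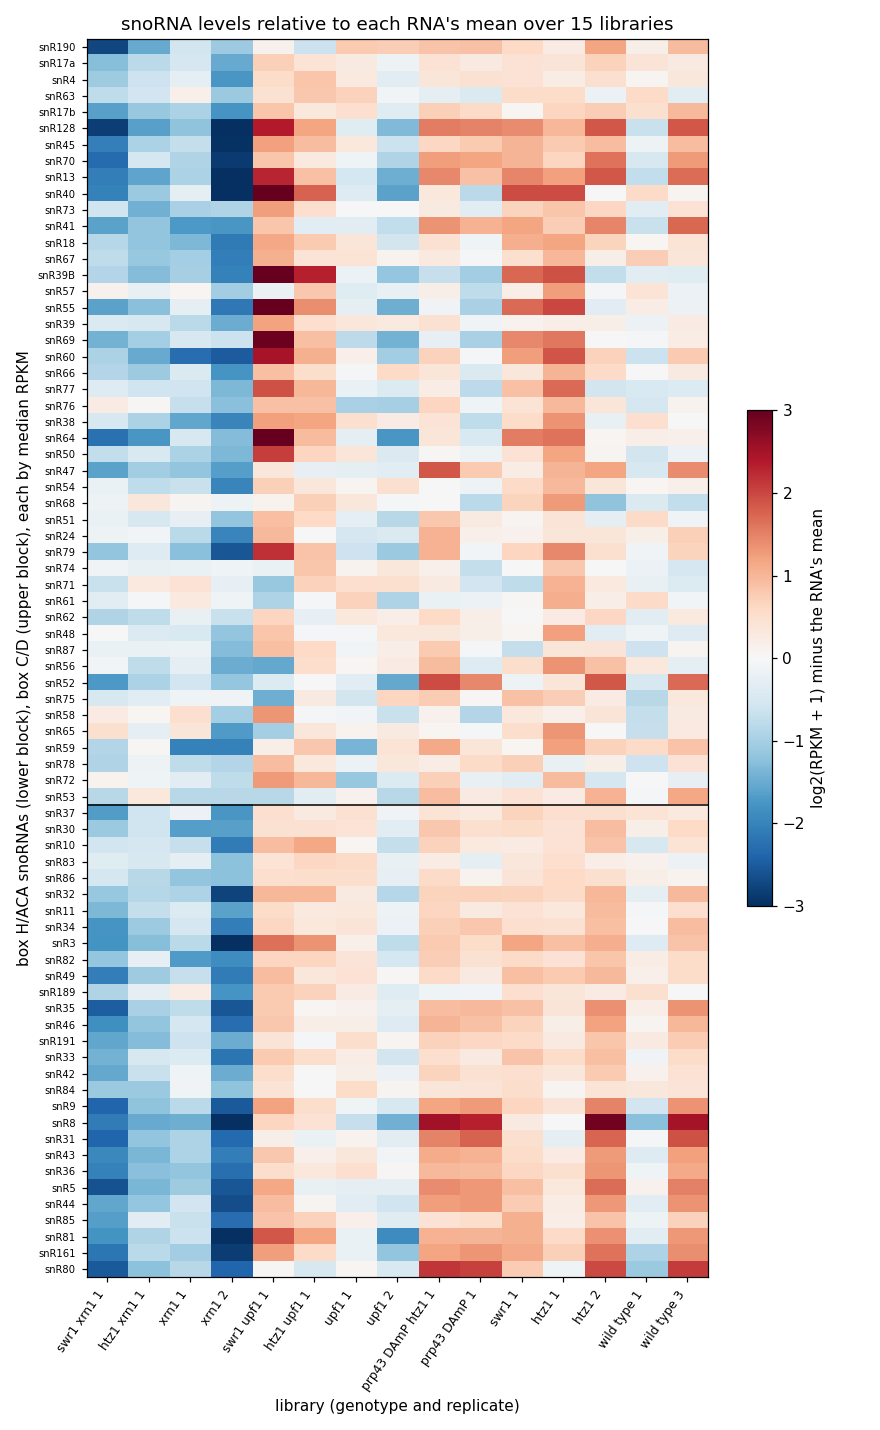
Level of each snoRNA (rows, in 2 blocks by class and ordered by median RPKM within a block) in each of the 15 libraries (columns), as log2(RPKM + 1) minus that RNA's mean over the libraries. The 4 xrn1-deleted libraries at the left are blue over most rows, while U14 (snR128), snR13, snR40 and snR8 show the widest swings.

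The targeted genes went with the labels. XRN1 was at 0.147 to 0.290 RPKM in the 4 xrn1-deleted libraries and at 127 to 175 RPKM in the other 11, and UPF1, HTZ1 and SWR1 were likewise at or under 0.273 RPKM in their mutants and at 23.0 RPKM or more elsewhere. PRP43 was at 42.7 and 55.4 RPKM in the DAmP libraries and at 84.8 to 157 RPKM in the others. The RPKM values imply 7160198 to 57373524 reads a library. Reading frames inside the ribosomal DNA took 12.1% to 21.2% of the summed RPKM in 5 libraries (htz1 replicate 1, swr1, htz1 upf1, swr1 upf1, swr1 xrn1) and at most 3.41% in the other 10. In wild type replicate 3, htz1 replicate 2, prp43 DAmP and prp43 DAmP htz1, 14 snoRNAs (18.4%), among them snR8, snR80, snR5 and snR190, stood above all other 11 libraries, as did 1.28% of all genes tested. These 4 libraries include a wild type and mutants, and were picked after the values were seen. The other 11 include the 4 xrn1-deleted libraries. With XRN1 loss 82.9% of snoRNAs were called lower and 74.1% of all genes higher (below). The shares of 18.4% and 1.28% are therefore not an even comparison. The box C/D RNAs under 110 bases and the other 40 snoRNAs moved by different amounts. Their median deviations from their own 15-library means were 1.02 and 0.44 in htz1 replicate 1, and 0.26 and 0.94 in htz1 replicate 2. These medians had opposite signs only in upf1 replicate 1 (-0.12 and 0.25) and prp43 DAmP (-0.14 and 0.60).

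Libraries of 1 genotype differed in their snoRNAs more than in other genes. The median absolute difference between the 2 xrn1 libraries was 1.13 on the log2(RPKM + 1) scale over the snoRNAs and 0.26 over all tested genes. Between the 2 wild type libraries these values were 0.64 and 0.37, between the htz1 libraries 0.69 and 0.34, and between the upf1 libraries 0.54 and 0.23. U14 was 5.79-fold higher in wild type replicate 3 than in replicate 1.

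The share of the summed RPKM taken by snoRNAs was lowest where XRN1 was deleted. It was 2.75% in swr1 xrn1, 4.33% in htz1 xrn1, and 4.98% and 2.61% in the 2 xrn1 libraries. In the 11 libraries with XRN1 the lowest share was 6.83% (upf1 replicate 2), the median 8.91% and the highest 11.9% (htz1 replicate 2). The 2 sets did not overlap. The xrn1 libraries averaged 3.80% ± 1.67 and the wild type libraries 9.08% ± 1.83 (SD, n = 2 each). The htz1 libraries averaged 9.82% ± 2.91 and the upf1 libraries 7.87% ± 1.47 (SD, n = 2 each). Differences in this share between genotypes were not tested. As a share of recovered reads, which weights long RNAs more, snoRNAs took 0.721% to 1.39% in the xrn1-deleted libraries and 1.98% to 3.79% in the others, again without overlap. A share of RPKM does not tell less snoRNA per cell from more of other RNA, nor from a change in the number of cells that hold it.

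**Figure D2:**
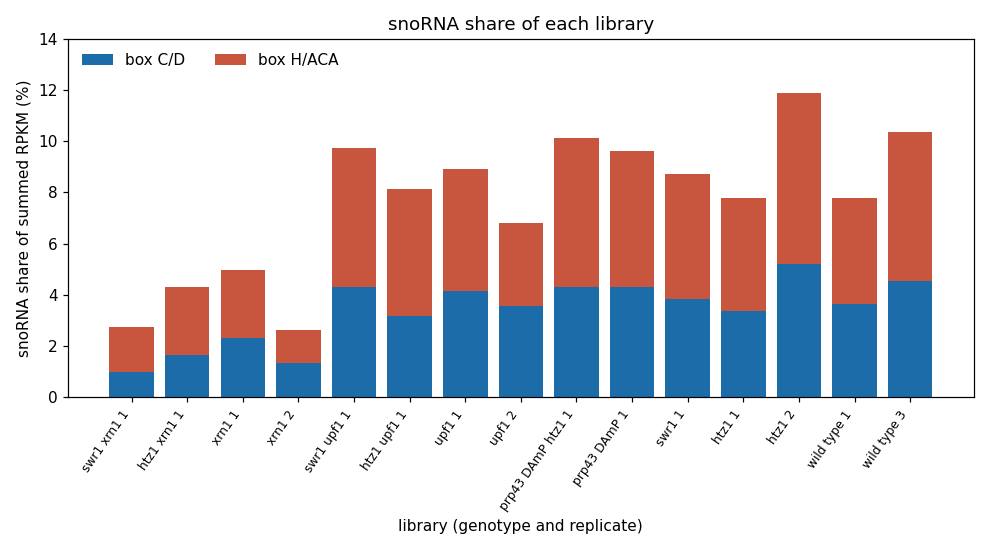
Share of the summed RPKM of each library (y axis, %) taken by box C/D snoRNAs (lower part of a bar) and box H/ACA snoRNAs (upper part), 1 bar a library. The xrn1-deleted libraries, at 2.61% to 4.98%, lie below the other 11, at 6.83% to 11.9%.

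The split of snoRNA RPKM between the classes changed less than its total. Box C/D RNAs took 36.6% of it in swr1 xrn1, 38.6% in htz1 xrn1, and 46.3% and 51.0% in the xrn1 libraries, against 39.3% to 52.5% in the libraries with XRN1.

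Loss of XRN1 was compared in 3 backgrounds at once, as xrn1 against wild type, htz1 xrn1 against htz1 and swr1 xrn1 against swr1, with the background as a term of the fit. On the log2(RPKM + 1) scale, 63 of the 76 snoRNAs (82.9%) fell and 0 rose at an adjusted p under 0.05 in limma, while 7.19% of all 6495 genes tested fell and 74.1% rose. The median change was -1.65 for the snoRNAs and 0.99 for all genes, since most other genes were higher, so the snoRNAs lay 2.65 below the median gene. With each library scaled to the same median log ratio (median scaling), 74 of the 76 snoRNAs (97.4%) and 27.9% of all genes were called lower, and 33.7% of all genes higher. The fall was present in each background, with a median of -1.41 in xrn1 against wild type, -1.47 in htz1 xrn1 against htz1 and -1.72 in swr1 xrn1 against swr1. The number of snoRNAs below their background strain was 72, 75 and 73 of 76 in that order, and 70 were lower in all 3 (92.1%, against 9.73% of all genes).

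U14, needed for an early cleavage towards the small subunit rRNA, fell the most. It was at 94.0 RPKM in swr1 xrn1, 216 in htz1 xrn1, and 290 and 24.7 in xrn1, against 1796 in swr1, 1347 and 2442 in htz1, and 422 and 2442 in wild type. All 4 xrn1-deleted libraries lay below all 5 of these, although xrn1 replicate 1 and wild type replicate 1 were close. The change was -3.56 (SE 0.71, adjusted p = 0.00111 in limma), or 4.56 below the median gene.

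snR13, which guides methylation of the large subunit rRNA, was at 35.8 RPKM in swr1 xrn1, 50.7 in htz1 xrn1, and 78.7 and 6.36 in xrn1, against 426 in swr1, 363 and 558 in htz1, and 92.0 and 488 in wild type. Its change was -3.23 (SE 0.67, adjusted p = 0.00145 in limma), with no overlap between these libraries. snR40, a methylation guide for both rRNAs, was at 36.8 RPKM in swr1 xrn1, 70.5 in htz1 xrn1, and 128 and 8.13 in xrn1, against 600 in swr1, 599 and 154 in htz1, and 230 and 164 in wild type. Its change was -2.72 (SE 0.72, adjusted p = 0.00596 in limma). For U14, snR13 and snR40 the xrn1-deleted range overlapped that of the other 11 libraries, because upf1 replicate 2 was as low, at 268, 54.6 and 49.9 RPKM. For snR40, upf1 replicate 1 (117 RPKM) and prp43 DAmP (87.7 RPKM) also lay inside it.

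The H/ACA guide snR5 was at 47.2 RPKM in swr1 xrn1, 114 in htz1 xrn1, and 139 and 49.1 in xrn1, against 556 in swr1, 370 and 942 in htz1, and 323 and 843 in wild type. Its change was -2.76 (SE 0.42, adjusted p = 0.000202 in limma), and the 4 xrn1-deleted libraries lay below all other 11. snR8, another H/ACA guide, was at 133 RPKM in swr1 xrn1, 201 in htz1 xrn1, and 206 and 64.4 in xrn1, against 689 in swr1, 574 and 4257 in htz1, and 240 and 3215 in wild type. Its change was -2.80 (SE 0.79, adjusted p = 0.00846 in limma), without overlap with the other 11, though its reference libraries themselves spread widely.

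Over all 15 libraries, 28 of 76 snoRNAs (36.8%) had every xrn1-deleted library below every other library, against 3.46% of all genes tested. They were 18 of 29 box H/ACA RNAs and 10 of 47 box C/D RNAs. snR30 was one of them, at 1576 to 3309 RPKM in the xrn1-deleted libraries and 4031 to 9509 RPKM in the others.

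The RNAs of known processing function all fell. snR30 changed by -1.71 (SE 0.19), snR17a by -1.43 (SE 0.22) and snR17b by -1.92 (SE 0.19), with adjusted p = 3.4e-05, 0.000201 and 2e-05 in limma. snR190 changed by -2.10 (SE 0.35, adjusted p = 0.000365). snR10, with -1.18 (SE 0.30, adjusted p = 0.00469), overlaps on its strand the reading frame YGL088W, whose level had the same rank order over the 15 libraries. snR17a and snR60 also overlap a reading frame on their strand, IRC13 and YJL047C-A.

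By class, 29 of 29 box H/ACA RNAs and 34 of 47 box C/D RNAs fell, with medians of -1.93 and -1.27. The 13 that did not pass were all box C/D RNAs with a median under 100 RPKM. These were snR48, snR57, snR58, snR61, snR65, snR68, snR71, snR72, snR74, snR75, snR77, snR78 and snR87. Of the 10 box C/D RNAs at 100 RPKM or more, 10 fell, with a median of -2.19, and of the 37 below it 24 fell, with a median of -1.04. The pseudocount of 1 RPKM understates the change of the lowest RNAs, but with a pseudocount of 0.1 the number of snoRNAs that fell was again 63 and their median -1.71. As a description over RNAs that share libraries, Spearman's rho between level and change was -0.61 in box C/D RNAs, where higher RNAs fell more, and 0.58 in box H/ACA RNAs, where higher RNAs fell less.

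snR68 and snR71, methylation guides of the large subunit rRNA, were the 2 snoRNAs whose estimate lay above 0 and are named after their values were seen. snR68 was at 14.4 RPKM in swr1 xrn1, 20.9 in htz1 xrn1, and 17.1 and 14.5 in xrn1, against 26.4 in swr1, 40.6 and 6.41 in htz1, and 11.8 and 9.28 in wild type. The groups overlapped, and its change of 0.16 (SE 0.45, adjusted p = 0.750 in limma) did not pass. That of snR71 was 0.11 (SE 0.25, adjusted p = 0.695). After median scaling the 2 values were -0.73 and -0.72. snR68 was called higher without the libraries rich in ribosomal DNA reading frames (0.89, adjusted p = 0.0164). There 4628 of 6495 genes were called higher and the median gene was at 1.04. Scaled on the snoRNAs themselves both snR68 and snR71 were called higher, at 1.55 (adjusted p = 7.89e-05) and 1.43 (adjusted p = 0.000449). That scaling brings the snoRNA median near 0 (-0.24), and it called 6266 of 6495 genes higher, with the median gene at 2.41. Each of these values of snR68 and snR71 lay below that of the median gene.

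**Figure D3:**
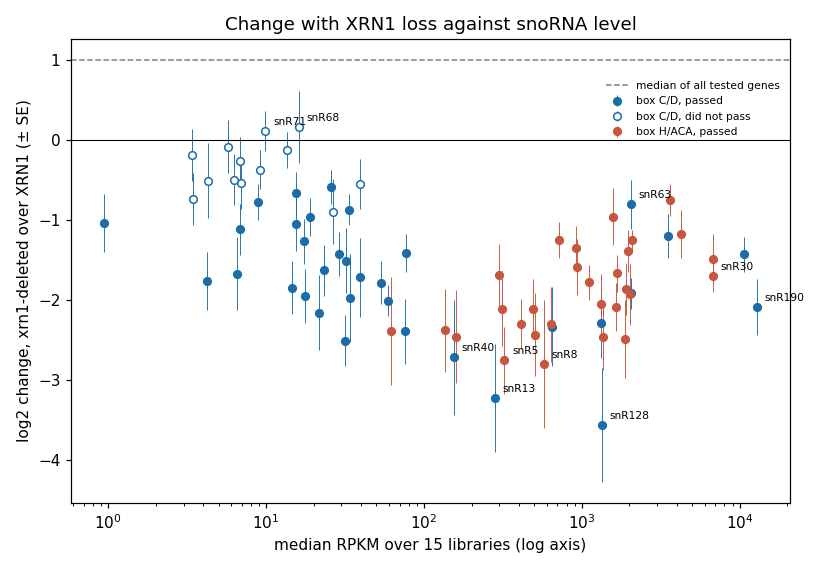
Change of each snoRNA with XRN1 loss (y axis, log2 with its SE) against its median RPKM over 15 libraries (x axis, log scale), filled where it passed the test, with lines at 0 and at the median of all tested genes (0.99). U14 (snR128) is lowest at -3.56, and the 13 open points are all box C/D RNAs of low level.

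Against wild type alone, with 1 mean for each genotype and 2 libraries on each side, 46 snoRNAs (60.5%) fell in xrn1 and 0 rose, while 4.14% of all genes fell. This count rests on both sides. It was 18 without xrn1 replicate 2 and 19 without wild type replicate 3. U14 changed by -3.56 (SE 1.08, adjusted p = 0.0174 in limma) and snR5 by -2.64 (SE 0.60, adjusted p = 0.00503), whereas snR8 with -2.92 (SE 1.21, adjusted p = 0.0577) and snR40 with -2.51 (SE 1.07, adjusted p = 0.0649) did not pass.

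All 8 intronic snoRNAs fell with XRN1 loss, and so did 6 of the 8 genes that carry them, against 7.19% of all genes. snR18, in an intron of the elongation factor gene EFB1, changed by -2.01 (SE 0.19) and EFB1 by -1.04 (SE 0.17). snR38 changed by -1.64 and its host TEF4, another elongation factor gene, by -0.77. snR44 changed by -2.11 and RPS22B, for a small subunit protein, by -0.59.

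snR39 and snR59 changed by -0.88 and -1.77, and their hosts RPL7A and RPL7B, for a large subunit protein, by -1.10 and -0.78. snR24 changed by -1.05 and ASC1, for a ribosome-bound scaffold protein, by -1.35. snR24 lost its call without wild type replicate 3 (-0.81, adjusted p = 0.0540 in limma). Adjusted p for the other intronic snoRNAs lay between 1.6e-05 and 0.00204.

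Without median scaling, the host did not fall beside its snoRNA in 2 cases. snR54 changed by -1.27 (adjusted p = 0.00190), while IMD4, for a guanine nucleotide synthesis enzyme, rose by 0.37 (SE 0.11, adjusted p = 0.0134) and was lower, at -0.58, after median scaling. snR191 changed by -1.78 (adjusted p = 5.8e-05), and NOG2, for a ribosome assembly GTPase, by -0.13 (adjusted p = 0.353). After median scaling NOG2 was at -1.085 (adjusted p = 0.000791 in limma), and all 8 hosts were called lower, as were 27.9% of all genes. The snoRNA was the lower of the pair in 6 of 8 cases, and the difference within a pair was not tested. How reads in introns were counted is not given in the sources used here.

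**Figure D4:**
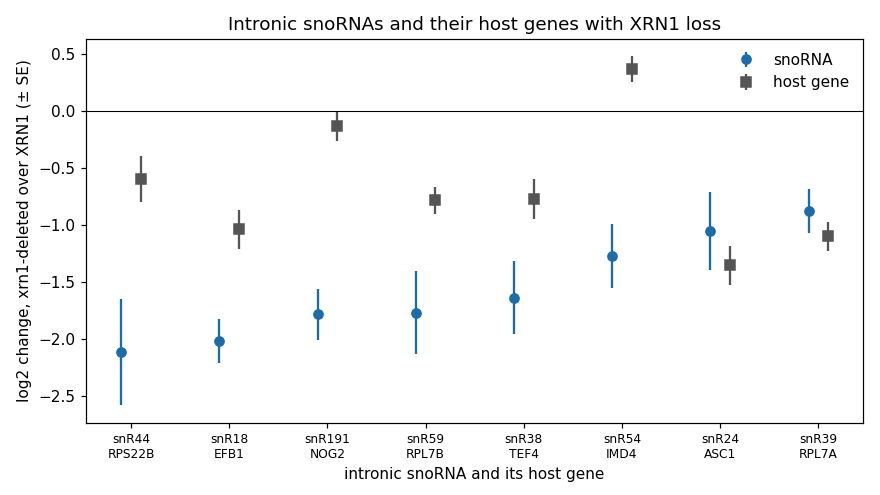
Change with XRN1 loss (y axis, log2 with its SE) of the 8 intronic snoRNAs (circles) and of the genes whose introns hold them (squares), ordered by the snoRNA's change. All 8 circles lie below 0, and the square of IMD4 is the only one above it, at 0.37.

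The other stable non-coding RNAs in the table fell as well. NME1, the RNA of RNase MRP, changed by -1.75 (SE 0.27), RPR1, the RNA of RNase P, by -0.90 (SE 0.20) and SCR1, the RNA of the signal recognition particle, by -1.02 (SE 0.24), with adjusted p = 0.000238, 0.00202 and 0.00330 in limma. SCR1, which is the most abundant of the 3, was at 26670 RPKM in swr1 xrn1, 35770 in htz1 xrn1, and 31380 and 24880 in xrn1, against 55170 in swr1, 44560 and 85870 in htz1, and 52970 and 72680 in wild type.

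Genes for snoRNP proteins and snoRNA synthesis were read against the all-gene median of 0.99 and the 74.1% of all genes that rose (33.7% after median scaling). Of 5 box C/D protein genes, 1 rose and 2 fell, and of 4 H/ACA protein genes none passed; after median scaling, 4 of 5 and 4 of 4 were lower. RRP9, for a protein of the U3 particle, rose by 0.95 (SE 0.17, adjusted p = 0.000479), which is 0.05 below the median gene, and SNU13 changed by -0.75 (SE 0.14, adjusted p = 0.000635). Of 11 assembly factor genes 8 rose and 0 fell, a share of 72.7% that is near the background, and 1 was higher and 4 lower after that scaling. SHQ1, an H/ACA assembly chaperone, rose by 1.30 (SE 0.14, adjusted p = 3.1e-05), and by 0.37 after scaling. TGS1, the cap hypermethylase of these RNAs, rose by 1.20 (SE 0.17, adjusted p = 0.000142) but with 0.27 did not pass after scaling. Of 14 processing and termination genes 9 rose (64.3%, against 74.1% of all genes) and 0 fell, and 2 were higher and 6 lower after scaling.

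PCF11, for a cleavage and termination factor, rose by 1.97 (SE 0.15, adjusted p = 6e-06) and by 1.04 after scaling. DBR1, the debranching enzyme that opens intron lariats, rose by 1.44 (SE 0.18, adjusted p = 5.8e-05) and by 0.54 after scaling. It was at 30.1 RPKM in swr1 xrn1, 26.8 in htz1 xrn1, and 37.9 and 42.8 in xrn1, against 9.92 in swr1, 14.4 and 10.2 in htz1, and 14.2 and 10.4 in wild type.

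With UPF1 loss, averaged over the wild type, htz1 and swr1 backgrounds, 0 of 76 snoRNAs passed in limma, while 29.7% of all genes were called, 28.8% as higher. An unadjusted p under 0.05 was reached by 5 snoRNAs (6.58%) and by 38.6% of all genes. The median change was -0.18 for the snoRNAs and 0.23 for all genes. It differed in sign between backgrounds, at -0.34 for upf1 against wild type, -0.22 for htz1 upf1 against htz1 and 0.16 for swr1 upf1 against swr1. The averaged median was 0.006 without wild type replicate 3, where 37 of 76 were below 0, and -0.028 without upf1 replicate 2. With the libraries rich in ribosomal DNA reading frames left out, 8 snoRNAs were called lower, among 36 of 6495 genes called lower and 937 called higher. Only the wild type background then held both states, so that fit compared upf1 with wild type and did not average over backgrounds.

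The smallest p-values belonged to snR53, at -1.02 (SE 0.35, adjusted p = 0.0572), and snR39, at 0.48 (SE 0.17, adjusted p = 0.0580). snR53 was at 0 RPKM in swr1 upf1, 0.408 in htz1 upf1, and 0.939 and 0 in upf1, against 1.41 in swr1, 1.12 and 2.69 in htz1, and 0.733 and 2.99 in wild type, which is 0 to 2 reads on the mutant side. snR39 was called without wild type replicate 3 (0.59, adjusted p = 0.0367), and snR53 under several settings, such as without wild type replicate 1 (-1.26, adjusted p = 0.0279). snR41 was at -1.01 (adjusted p = 0.127; 0.0122 without wild type replicate 1), snR35 at -0.66, snR87 at 0.60 and snR50 at 0.53, none past the threshold. Against wild type alone 0 snoRNAs passed and 13.3% of all genes did, while 5 snoRNAs and 23.3% of all genes had an unadjusted p under 0.05. Of the gene lists, to be read against the 28.8% of all genes that rose, 3 of 11 assembly factors rose, led by BCD1 at 1.24 (SE 0.26, adjusted p = 0.00546) and TGS1 at 1.04 (SE 0.17, adjusted p = 0.00138), and 3 of 14 processing and termination genes, led by DBR1 at 1.24 (SE 0.16, adjusted p = 0.000358) and PCF11 at 0.74 (SE 0.15, adjusted p = 0.00413). Among the hosts IMD4 rose by 0.58 and ASC1 fell by 0.46. After median scaling, 3 assembly factors were higher and 4 lower, 2 processing genes were higher and 1 lower, and 0 hosts were higher and 2 lower.

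With HTZ1 loss, averaged over 4 backgrounds, 1 of 76 snoRNAs rose and 0 fell. Of all 6495 genes tested 1.92% were called, 29 as higher and 96 as lower. The snoRNA that rose was snR76, a methylation guide of the large subunit rRNA. It was at 24.6 RPKM in htz1 xrn1, 44.6 in htz1 upf1, 37.8 in prp43 DAmP htz1, and 47.8 and 31.2 in htz1, against 14.5 and 9.50 in xrn1, 11.8 and 11.4 in upf1, 21.7 in prp43 DAmP, and 16.5 and 25.7 in wild type. Within each background the htz1-deleted libraries lay above the others. The change was 1.12 (SE 0.20, adjusted p = 0.0223 in limma). It did not pass without the libraries rich in ribosomal DNA reading frames (0.78, adjusted p = 0.131), nor without wild type replicate 1 (1.07, adjusted p = 0.0524), htz1 xrn1 (1.15, adjusted p = 0.0736) or htz1 upf1 (0.89, adjusted p = 0.0861), nor when scaled on the snoRNAs themselves (0.67, adjusted p = 0.101).

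The snoRNAs as a list had a median of 0.48 against -0.02 for all genes, and 44 (57.9%) were higher in all 4 backgrounds and 1 (1.32%) lower in all 4, against 13.4% and 15.2% of all genes. An unadjusted p under 0.05 was reached by 21 snoRNAs (27.6%) and by 17.8% of all genes. The median was 0.47 for htz1 against wild type, 0.40 for htz1 xrn1 against xrn1, 0.51 for htz1 upf1 against upf1 and 0.30 for prp43 DAmP htz1 against prp43 DAmP. The first of these rests on single wild type libraries: it was 0.14, with 30 of 76 below 0, without wild type replicate 1, and 0.73 without wild type replicate 3. The wild type, xrn1 and upf1 pairs hold 2 libraries on at least 1 side, and the 2 wild type libraries differed from each other by a median of 0.55. Against wild type alone 0 snoRNAs passed in limma and 0.0616% of all genes did, while 6 snoRNAs (7.89%) and 4.65% of all genes had an unadjusted p under 0.05.

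With SWR1 loss, averaged over 3 backgrounds, 4 of 76 snoRNAs rose and 0 fell. Of all 6495 genes tested 4.0% were called, 31 as higher and 229 as lower. The 4 snoRNAs that rose are snR39B, snR60, snR77 and snR76, all short box C/D methylation guides, whose sequences are printed above. The median of the snoRNAs was 0.41, against -0.08 for all genes. It was 0.28 for swr1 against wild type, 0.02 for swr1 xrn1 against xrn1, where 37 were lower and 38 higher, and 0.84 for swr1 upf1 against upf1. Without swr1 upf1 the averaged median was 0.255, with 25 of 76 below 0. An unadjusted p under 0.05 was reached by 21 snoRNAs (27.6%) and by 18.6% of all genes. Against wild type alone 0 snoRNAs passed in limma and 0.0308% of all genes did, while 2 snoRNAs (2.63%) and 4.36% of all genes had an unadjusted p under 0.05.

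snR39B was at 34.6 RPKM in swr1 xrn1, 848 in swr1 upf1 and 212 in swr1, against 31.7 and 14.9 in xrn1, 57.0 and 28.1 in upf1, and 51.4 and 49.2 in wild type. Its change was 2.36 (SE 0.56, adjusted p = 0.0489 in limma). snR60 was at 14.2 RPKM in swr1 xrn1, 162 in swr1 upf1 and 69.8 in swr1, against 5.05 and 4.27 in xrn1, 31.6 and 13.3 in upf1, and 18.0 and 49.5 in wild type, a change of 1.85 (SE 0.41, adjusted p = 0.0390). In each background the swr1-deleted library was the higher one for both RNAs.

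snR77, a guide for the small subunit rRNA, was at 27.1 RPKM in swr1 xrn1, 138 in swr1 upf1 and 67.0 in swr1, against 23.4 and 13.4 in xrn1, 31.1 and 26.7 in upf1, and 25.8 and 26.4 in wild type, a change of 1.38 (SE 0.28, adjusted p = 0.0270). snR76 was at 28.4 RPKM in swr1 xrn1, 44.8 in swr1 upf1 and 32.1 in swr1, against 14.5 and 9.50 in xrn1, 11.8 and 11.4 in upf1, and 16.5 and 25.7 in wild type, a change of 1.23 (SE 0.24, adjusted p = 0.0268). Here too no swr1-deleted library overlapped its background strain.

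All 4 calls were lost without swr1 upf1, the shallowest library (snR39B 1.35, snR60 1.31, snR77 0.95 and snR76 0.91, adjusted p from 0.131 to 0.194), or without wild type replicate 1 or xrn1 replicate 2. Among the other single libraries left out, each of the 4 lost its call in at least 2 cases.

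All 3 swr1-deleted libraries are among the 5 with over 10% of summed RPKM in ribosomal DNA reading frames, at 16.9% in swr1, 14.5% in swr1 upf1 and 12.1% in swr1 xrn1. The same 4 snoRNAs were also high in htz1 replicate 1, with 21.2%, where snR39B was at 245 RPKM, and in htz1 upf1, with 16.1%, where it was at 325 RPKM. In htz1 replicate 2, with 0.433%, snR39B was at 38.0 RPKM. The part of the ribosomal DNA reads in these results was not tested, and SWR1 loss and a high ribosomal DNA share cannot be told apart, since no swr1-deleted library has a low one.

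**Figure D5:**
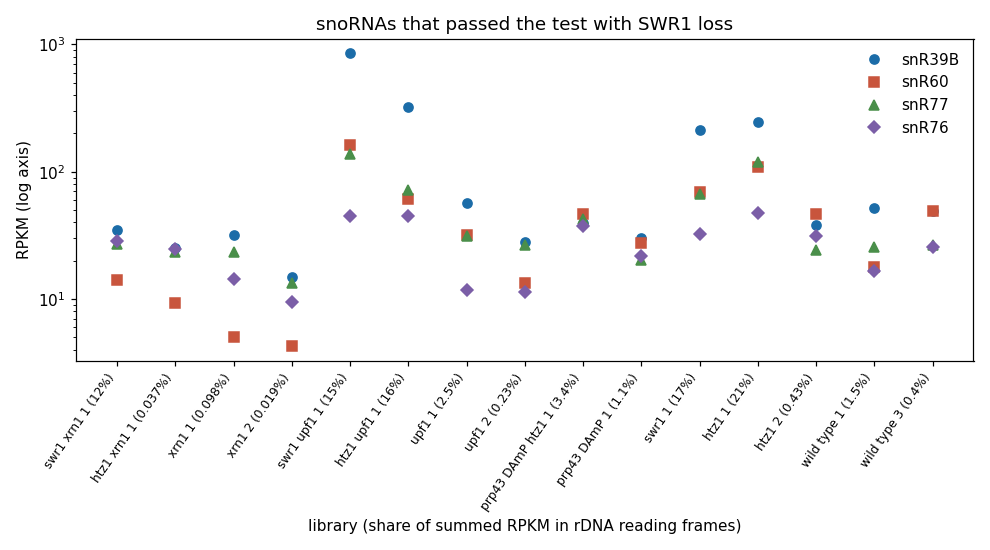
RPKM (y axis, log scale) of snR39B, snR60, snR77 and snR76 in each library (x axis, with the share of its summed RPKM in ribosomal DNA reading frames in parentheses). snR39B is at 848, 325, 245 and 212 RPKM in swr1 upf1, htz1 upf1, htz1 replicate 1 and swr1, and at 57.0 RPKM or less in the other 11 libraries.

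With the prp43 DAmP allele, averaged over the wild type and htz1 backgrounds, 0 of 76 snoRNAs passed in limma and 0.0% of all genes did, while 2 snoRNAs (2.63%) and 2.4% of all genes had an unadjusted p under 0.05. The median change of the snoRNAs was 0.07, against -0.07 for all genes, and it was -0.10 without wild type replicate 1 and 0.16 without wild type replicate 3. For prp43 DAmP against wild type alone these medians were -0.20, with 67 of 76 below 0, and 0.31, with 28 below 0. The smallest p-values on the higher side were those of snR80 (1.40, SE 0.90), snR52 (0.83, SE 0.63) and snR44 (0.64, SE 0.49), and on the lower side those of snR69 (-1.04, SE 0.40), snR66 (-0.50, SE 0.20) and snR18 (-0.42, SE 0.21), each with adjusted p = 0.999. snR80, snR52 and snR44 are among the 14 snoRNAs counted above as highest in both prp43 DAmP libraries, wild type replicate 3 and htz1 replicate 2. snR80, an H/ACA guide, was at 308 RPKM in prp43 DAmP htz1 and 287 in prp43 DAmP, against 62.1 and 272 in htz1 and 31.2 and 298 in wild type, so prp43 DAmP htz1 lay above both htz1 libraries and prp43 DAmP between the 2 wild type libraries. snR69 was called lower without htz1 replicate 2 (-1.38, adjusted p = 0.0244). Against wild type alone 0 snoRNAs passed in limma while 0.431% of all genes did, and 0 snoRNAs and 3.93% of all genes had an unadjusted p under 0.05.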

How the data were processed

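RNA-seq of rRNA-depleted RNA from 15 yeast libraries was deposited by the authors as 1 table of RPKM values (reads per gene length and library size), with reads aligned to sacCer3. STAR 2.4.0 and CASAVA are named in the submitters' processing notes, and the counting of reads is not given in the sources used here. A column that matched no sample (1) was not used. Rows averaging 1 RPKM or more (6495, with all 76 snoRNAs) were fitted on log2(RPKM + 1) with limma 3.58.1 (R 4.3.3, trended variance), and p-values were adjusted over all of them by Benjamini-Hochberg at 0.05. Averaged comparisons carry a background term, and single mutants were set against wild type with 1 mean a genotype over 15 libraries. Whole reads were recovered as RPKM times gene length (at least 99.6% of low values lay within 0.1 of a whole number) and tested with limma voom as an alternative. Members and gene lists were chosen with earlier results of these data known. Named RNAs are the 5 largest called changes in each direction, or the 3 smallest p where none was called, the 5 highest, lowest, most and least variable, and RNAs of known processing role or intronic position. The fit was tested on simulated data. Of 6659 distinct names, 5989 matched R64. Other alternatives were the pseudocount, the filter, scaling, the model and leaving out libraries.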

Additional observations from a re-analysis of the deposited data

Results flagged for a closer look

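snR68 moved in opposite directions with XRN1 loss in 2 backgrounds. Both xrn1 libraries (17.1 and 14.5 RPKM) were above both wild type libraries (11.8 and 9.28 RPKM), a difference of 0.55 on the log2(RPKM + 1) scale, while swr1 xrn1 (14.4 RPKM) was below swr1 (26.4 RPKM), a difference of -0.83 between 1 library each. In the htz1 background, htz1 xrn1 (20.9 RPKM) lay between the 2 htz1 libraries (40.6 and 6.41 RPKM), a difference of 0.32. Other snoRNAs of low level also changed sign between backgrounds, such as snR75, at 0.14 in xrn1 against wild type and -1.35 in swr1 xrn1 against swr1. The difference between the backgrounds was not tested.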

How the results depend on the processing

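The number of snoRNAs called with XRN1 loss was within 1.5 times its main value under 18 of 19 alternatives, from 58 to 66 with 1 library left out; scaled on the snoRNAs themselves it was 34 (11 higher, 23 lower), where snR24 was at 0.28, snR39 at 0.53, snR54 at 0.082, snR17a at 0.041 and snR10 at 0.29. Scaled to the same median log ratio, the snoRNA median moved to -2.46 for XRN1 loss, -0.53 for UPF1 loss and 0.18 for prp43 DAmP; snR68 turned to -0.73 and snR71 to -0.72. Scaled on the snoRNAs these were 1.55 (adjusted p = 7.89e-05 in limma) and 1.43 (adjusted p = 0.000449), below the median gene at 2.41. Without libraries rich in ribosomal DNA snR68 was 0.89 (adjusted p = 0.0164), below the median gene at 1.04, and was the 1 snoRNA called higher beside 58 lower. With 1 library left out snR68 and snR71 ranged from -0.16 to 0.457 and from -0.076 to 0.316, and they were below 0 without the 4 alike libraries (wild type replicate 3, htz1 replicate 2 and both prp43 DAmP), chosen after seeing the data (-0.37 and -0.058). For UPF1 loss the snoRNA count of 0 became 1 with no filter, and 3 and 5 under the 2 scalings. All genes called there were 1904 of 6659, and 2583 and 1569 of 6495. The snoRNA count was 8 without libraries rich in ribosomal DNA, 2 without the 4 alike libraries, and 0 to 4 with 1 library left out. For HTZ1 loss the snoRNA count became 2 (pseudocount 5), 3 (scaled), 0 (without rich libraries) and 0 to 3. All genes called in the named settings were 113, 363 and 13 of 6495. For SWR1 loss the snoRNA count became 2 (pseudocount 5), 1 (no filter), 2 (mean of 10 RPKM or more), 2 (voom), 1 (1 mean a genotype) and 0 to 5. All genes called in the named settings were 195, 193, 105, 301 and 105, of 5883 to 6659 tested. For prp43 DAmP the snoRNA count became 2 scaled on snoRNAs, beside 30 of 6495 genes, and 0 to 5. Against wild type, xrn1 gave 14 scaled on snoRNAs and 18 to 53 with 1 library left out, and upf1 0 to 3; htz1, swr1 and prp43 DAmP kept 0. Correlations of the deviations of same-numbered libraries ran from -0.27 to 0.52 over the genes tested and were over 0.1 in 3 of 6 pairs of groups (3 share 2 numbers, 3 share 1), so the numbers were not taken to pair them; with the replicate block 11 snoRNAs were called for xrn1, 0 for upf1 and 0 for htz1. Over the snoRNAs alone, the correlations between same-numbered libraries ran from -0.285 to 0.736, highest for htz1 with wild type. In the block fit wild type replicate 3 was the only library of its number. The wild type side thus rested on replicate 1. The snoRNA median was then -0.93 for xrn1, 0.23 for upf1 and 0.99 for htz1, against -1.41, -0.34 and 0.47 without the block. The median share of snoRNAs was 2.91% of recovered reads and 9.68% of RPKM without the ribosomal DNA frames. Leaving out libraries rich in ribosomal DNA could not be fitted for SWR1 loss, and the share without mitochondrial genes has no value, as 0 such rows were found. The cause of these shifts was not tested. Low depth limits snR53 and snR59.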
